A study of Mus musculus with 8 samples.

Results

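The genes described here are the aryl hydrocarbon receptor gene Ahr, its dimerization partner gene Arnt, its repressor gene Ahrr and the target genes Tiparp, Cyp1a1 and Cyp1b1. They were taken by symbol from the deposited expression table, where all 6 were listed among 18262 genes. The table came from RNA sequencing of colon tissue of wild-type mice in which dextran sulfate sodium (DSS), which injures the colon lining, had caused colitis. The DSS group had 4 libraries. The DSS + GAA group had 4 libraries from mice with the same DSS colitis treated with the Ganoderma triterpenoid ganoderic acid A (GAA) at 20 mg/kg. The treatment labels of these 4 libraries read 20, 21, 22 and 23 mg/kg, whereas by titles and study design all were dosed at 20 mg/kg. Strain, age, the course of DSS and the time of sampling are not given in the sources used here, and tissue without DSS was not analysed here. The study asked, by its title, whether GAA eases colitis through the nuclear receptor RORA and IL-17 signalling.

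AHR is a ligand-activated transcription factor of the bHLH-PAS family. Without ligand it is held in the cytosol by HSP90 and its co-chaperones. Once it has bound dietary, microbial or tryptophan-derived ligands, it enters the nucleus, pairs with ARNT and binds xenobiotic response elements, whose core is GCGTG. Its targets include CYP1A1 and CYP1B1, which oxidize its ligands, AHRR, which competes with it for ARNT, and TIPARP, an ADP-ribosyltransferase that curbs its activity. In the gut AHR is known for its part in maintaining group 3 innate lymphoid cells, intraepithelial lymphocytes and IL-22 production.

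Values are TPM, a transcript abundance scaled within each library, as the authors deposited them. TPM corrects for transcript length, keeps no record of sequencing depth, and each library sums to the same total, so depth is unknown and no interval from counts could be given. The test covered the 14217 genes that reached 1 TPM in 4 or more libraries. Of these, 28.2% passed (limma, adjusted p under 0.05) as lower in DSS + GAA and 5.96% as higher. The median log2 difference over all tested genes was -0.25, and the medians of the 4 DSS libraries lay above those of the 4 DSS + GAA libraries. After scalings that move this median close to 0, the calls were 1648 lower and 1890 higher (trimmed mean scaling), 1601 and 1677 (quantile normalization) or 1308 and 2165 (median centring), against 4006 and 847 on the deposited scale. Without DSS replicate 1 they were 1676 and 361 on the deposited scale. Epithelial markers were present in every library, where 14 colonic epithelial markers summed to 17984 to 22384 TPM (DSS) or 26010 to 28501 TPM (DSS + GAA).

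Promoter windows of 300 bases, from 250 bases before to 50 after a gene's start, were found for 5 of the 6 genes in RefSeq (GRCm38.p6). Those of the repressor and the 3 target genes are shown because these are the genes the receptor is known to regulate. Capitals mark each GCGTG, or CACGC where it lies on the opposite strand, and each sequence reads 5′ to 3′ along the gene.
Ahrr, chr13:74292282-74292581, minus strand: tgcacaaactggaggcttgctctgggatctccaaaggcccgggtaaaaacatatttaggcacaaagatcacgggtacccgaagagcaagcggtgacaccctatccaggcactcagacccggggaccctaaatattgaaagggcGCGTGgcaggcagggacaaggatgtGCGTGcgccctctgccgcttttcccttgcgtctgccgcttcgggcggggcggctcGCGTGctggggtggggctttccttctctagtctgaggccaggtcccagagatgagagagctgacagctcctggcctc
Cyp1a1, chr9:57697363-57697662, plus strand: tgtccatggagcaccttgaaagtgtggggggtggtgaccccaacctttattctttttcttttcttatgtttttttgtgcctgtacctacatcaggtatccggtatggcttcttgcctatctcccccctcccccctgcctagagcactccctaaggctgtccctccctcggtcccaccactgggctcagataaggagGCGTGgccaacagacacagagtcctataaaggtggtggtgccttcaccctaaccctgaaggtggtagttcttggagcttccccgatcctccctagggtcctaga
Cyp1b1, chr17:79715012-79715311, minus strand: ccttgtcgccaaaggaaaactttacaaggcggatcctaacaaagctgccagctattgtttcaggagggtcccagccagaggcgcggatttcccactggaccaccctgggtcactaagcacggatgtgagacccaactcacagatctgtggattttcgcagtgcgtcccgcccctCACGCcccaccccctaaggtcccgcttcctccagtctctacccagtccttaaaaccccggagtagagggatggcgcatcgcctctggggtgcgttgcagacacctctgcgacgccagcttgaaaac
Tiparp, chr3:65528197-65528496, plus strand: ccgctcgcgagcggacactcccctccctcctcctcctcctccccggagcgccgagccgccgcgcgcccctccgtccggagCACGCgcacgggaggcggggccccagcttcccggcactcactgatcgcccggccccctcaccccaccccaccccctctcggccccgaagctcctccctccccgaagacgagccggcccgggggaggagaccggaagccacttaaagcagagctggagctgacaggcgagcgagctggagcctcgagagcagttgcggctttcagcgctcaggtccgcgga

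Ahrr held 3 copies, starting at bases 144, 169 and 224 of its window, while Cyp1a1 (base 197), Cyp1b1 (base 175), Tiparp (base 81) and Arnt (base 222) held 1 copy each. Searched on both strands, GCGTG occurred in 32.4% of all 32851 windows, and 3.91% held 3 or more copies. The longer form TNGCGTG, which contains GCGTG, was found in 5.07% of the windows, and of the 5 windows only that of Ahrr held it. The 5 windows were 54.0% to 73.7% G or C. Such a match is a string of letters and not a measured binding site.

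Of the 6 genes, 4 passed the filter on low values, and of those 4 the receptor gene Ahr, the partner gene Arnt and the target gene Tiparp fell in DSS + GAA, beside the 28.2% of all tested genes that fell. No gene of the 6 rose. The DSS and DSS + GAA values did not overlap for Ahr, Arnt, Tiparp and Cyp1b1, with DSS above in each. The same held for 27.6% of the tested genes and 24.8% of all genes in the table.

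Ahr was measured at 22.9, 17.8, 20.1 and 18.8 TPM in DSS replicates 1, 2, 4 and 5, and at 14.1, 12.6, 11.0 and 11.0 TPM in DSS + GAA replicates 1, 2, 4 and 5. All 4 DSS libraries were above all 4 DSS + GAA libraries, and the spread within each group was small. The group means were 19.9 ± 2.22 and 12.2 ± 1.48 TPM (SD, n = 4 each), a ratio of means of 1.63. The log2 difference was -0.67 ± 0.13 (standard error; limma adjusted p = 0.00832). Ahr lies on chromosome 12, 35497974 to 35535038, minus strand (GRCm38). A long noncoding RNA gene, Gm48236, overlaps its span on the opposite strand. Whether exons overlap was not examined, for this gene or for the other overlapping genes named below. No source used here says whether the libraries kept strand, so reads from any shared exons could not be told apart.

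Arnt, whose product also pairs with the hypoxia factors HIF1A and EPAS1, was measured at 54.5, 51.4, 46.1 and 42.1 TPM in DSS and at 33.9, 32.2, 31.8 and 31.7 TPM in DSS + GAA (replicates 1, 2, 4 and 5). The DSS + GAA libraries were almost level, and all of them were below the lowest DSS library. The means were 48.5 ± 5.49 and 32.4 ± 0.991 TPM (SD, n = 4 each), a ratio of 1.5, and the log2 difference was -0.56 ± 0.11 (limma adjusted p = 0.00829). Arnt lies on chromosome 3, 95434388 to 95497240, plus strand, and contains a processed pseudogene, Gm42672, on the same strand.

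Tiparp had the highest mean TPM of the 6 genes in DSS, though not in DSS + GAA, and among the 4 tested genes the largest log2 difference. It was measured at 65.9, 91.7, 46.2 and 46.6 TPM in DSS and at 42.9, 32.3, 28.0 and 23.6 TPM in DSS + GAA. DSS replicate 2 stood highest, and DSS replicates 4 and 5 were only slightly above DSS + GAA replicate 1. The means were 62.6 ± 21.5 and 31.7 ± 8.24 TPM (SD, n = 4 each), a ratio of 1.97. The log2 difference was -0.93 ± 0.25 (limma adjusted p = 0.0213). Without DSS replicate 1 it was -0.89 (adjusted p = 0.0690), and without DSS + GAA replicate 4 it was also -0.89 (adjusted p = 0.0519), so the call ended in both cases. Over 18 alternatives the adjusted p ranged from 0.00714 to 0.117. Tiparp lies on chromosome 3, 65528410 to 65555518, plus strand, and a transcribed pseudogene, 4931440P22Rik, overlaps it on the opposite strand.

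**Figure D1:**
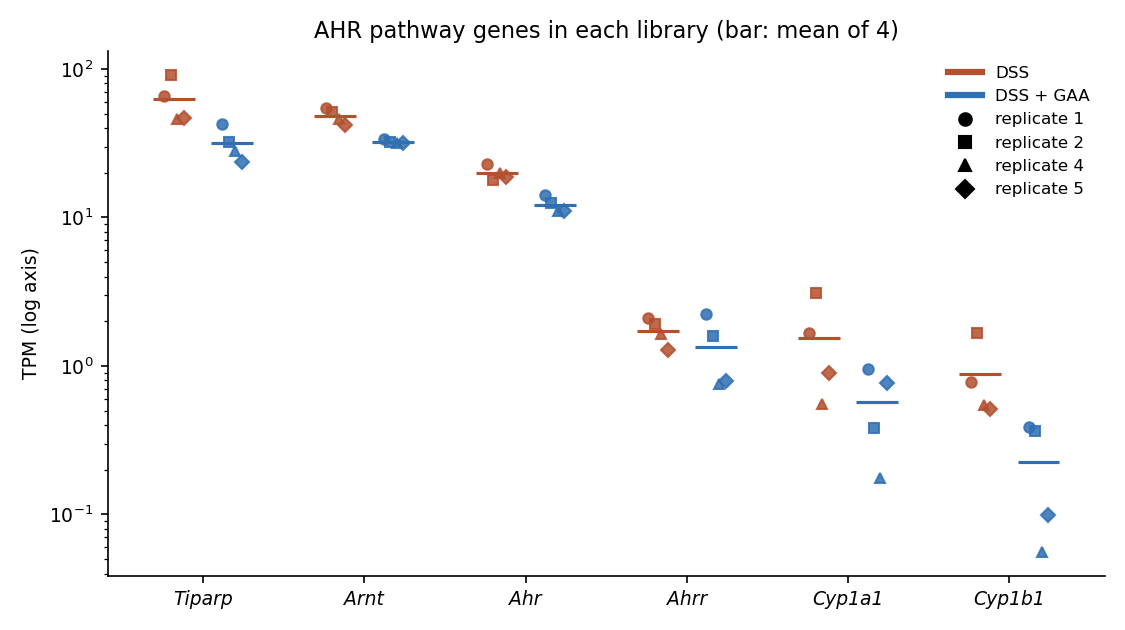
TPM (log axis) of the 6 genes in each of the 8 libraries, with 1 symbol per replicate number and a bar at the mean of 4 libraries. DSS and DSS + GAA values are apart for Tiparp, Arnt, Ahr and Cyp1b1, and they overlap for Ahrr and Cyp1a1.

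The repressor gene Ahrr did not pass. It was measured at 2.09, 1.91, 1.64 and 1.28 TPM in DSS and at 2.23, 1.58, 0.755 and 0.795 TPM in DSS + GAA. The highest and the lowest of the 8 values were both in DSS + GAA. The means were 1.73 ± 0.353 and 1.34 ± 0.706 TPM (SD, n = 4 each), and the log2 difference was -0.26 ± 0.22 (limma adjusted p = 0.389). Its sign turned under quantile normalization (0.17) and median centring (0.04). Ahrr lies on chromosome 13, 74211118 to 74292331, minus strand.

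Both CYP1 genes were near the bottom of the measured range and did not pass the filter on low values, so they were compared in the fit without a filter, in which 23.5% of 18262 genes passed as lower. Cyp1a1, the classical readout of AHR activity, was measured at 1.66, 3.10, 0.555 and 0.899 TPM in DSS and at 0.952, 0.384, 0.175 and 0.767 TPM in DSS + GAA. DSS replicates 1 and 2 were the 2 highest libraries, and the other DSS libraries lay among the DSS + GAA libraries. The means were 1.55 ± 1.13 and 0.570 ± 0.354 TPM (SD, n = 4 each). On the log2(TPM + 1) scale, which understates changes at such levels, the difference was -0.63 ± 0.30 (limma without a filter, adjusted p = 0.147). It was -1.23 with a pseudocount of 0.1 (adjusted p = 0.137) and -0.37 without DSS replicate 2 (adjusted p = 0.282). Over 16 alternatives the adjusted p was 0.0744 to 0.556. Cyp1a1 lies on chromosome 9, 57687928 to 57703824, plus strand, in GENCODE, which places its start upstream of the RefSeq start used for the promoter window above. Its neighbour and closest relative Cyp1a2 was not analysed here.

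Cyp1b1, which in many tissues is expressed by stromal cells, was measured at 0.777, 1.67, 0.545 and 0.515 TPM in DSS and at 0.385, 0.366, 0.056 and 0.099 TPM in DSS + GAA. All 4 DSS libraries were above the DSS + GAA libraries, and DSS replicate 2 was again the highest. The means were 0.876 ± 0.540 and 0.227 ± 0.173 TPM (SD, n = 4 each), the widest ratio of the 6 genes at 3.87. The difference was -0.58 ± 0.19 (limma without a filter, adjusted p = 0.0473), and with a pseudocount of 0.1 it was -1.61 (adjusted p = 0.0372). The call was narrow. It ended without DSS replicate 1 (adjusted p = 0.102), 2 (0.0527) or 4 (0.0536), without DSS + GAA replicate 2 (0.0732), 4 (0.109) or 5 (0.102), with a pseudocount of 5 (0.0687) and in a fit lacking the variance trend and robust step (0.0591). Cyp1b1 lies on chromosome 17, 79701537 to 79715061, minus strand.

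The log2 fold changes in the authors' deposited table put the 6 genes in the same order as the ratios of mean TPM do, but its calls differ from those of limma. At a false discovery rate under 0.05 it calls 16.2% of its 18262 genes lower in DSS + GAA. In the authors' deposited table the low-level genes pass, Cyp1b1 with a log2 fold change of -1.95 (false discovery rate 9.03e-06) and Cyp1a1 with -1.45 (0.00232). In the authors' deposited table Tiparp (-0.98, false discovery rate 0.0630), Ahr (-0.71, 0.335), Arnt (-0.58, 0.531) and Ahrr (-0.37, 0.937) do not pass. The authors' deposited table therefore calls the pair that the filter leaves out and does not call Ahr and Arnt. The submitters' processing notes list edgeR, a package for differential expression, without saying what it was used for. The log2 fold changes of Cyp1b1 and Cyp1a1 in the authors' deposited table are larger than the -0.58 and -0.63 above, which are on the log2(TPM + 1) scale.

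After 3 scalings that move the median of all tested genes close to 0, the falls of Ahr, Arnt and Tiparp were smaller. Whether Ahr and Arnt passed depended on the scaling. For Ahr the log2 difference was -0.41 after trimmed mean scaling (limma adjusted p = 0.0411), -0.35 after quantile normalization (0.0525) and -0.36 after median centring (0.0523). For Arnt it was -0.30 (0.0725), -0.37 (0.0357) and -0.26 (0.101) in the same order. Tiparp stood at -0.67 (0.107), -0.74 (0.0752) and -0.63 (0.117), and Cyp1b1, without a filter, at -0.49 (0.112), -0.41 (0.184) and -0.20 (0.469). Ahr thus passed under 1 of these 3 scalings, Arnt under 1, and Tiparp and Cyp1b1 under 0. The direction stayed below 0 in each of these cases.

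**Figure D2:**
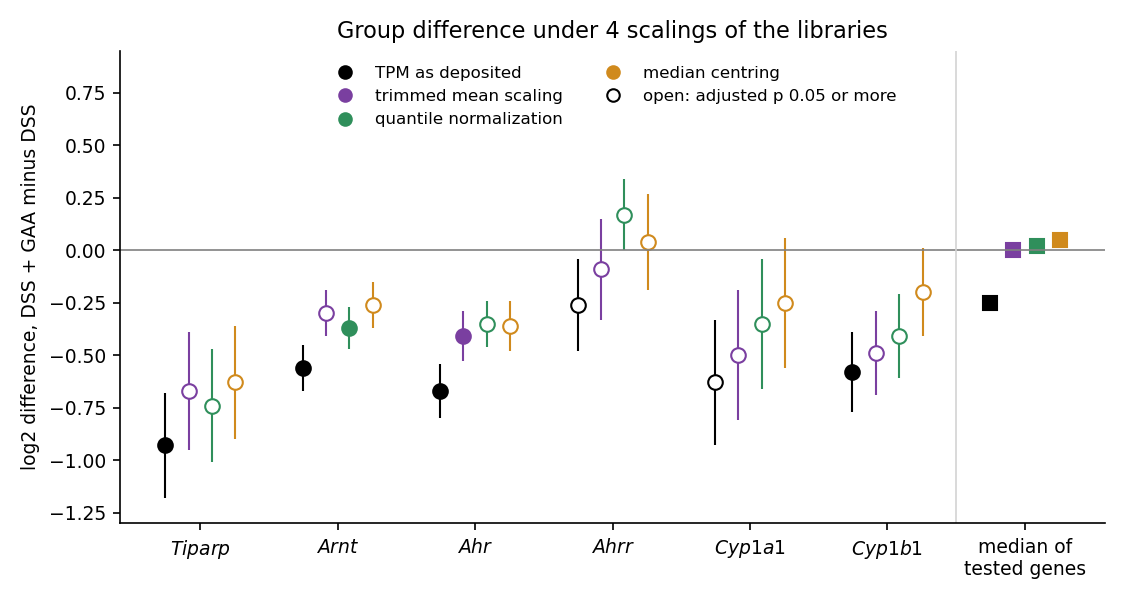
Log2 difference between DSS + GAA and DSS for the 6 genes and for the median of all tested genes, under TPM as deposited and 3 other scalings, with bars for the standard error of the fit. Cyp1a1 and Cyp1b1 are from the fits without a filter. With the median gene moved close to 0, Ahr, Arnt and Tiparp stay below 0 and most points are open, while Ahrr lies on both sides of 0.

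TPM allows levels to be compared between genes. Tiparp and Arnt were the highest of the 6 in every library. Tiparp was above Arnt in 4 DSS and 2 DSS + GAA libraries, although in DSS the ranges of these neighbours in the order overlapped, and in DSS + GAA their means were 31.7 and 32.4 TPM. Ahr came next in all 8 libraries, below its partner and above the other 3 genes. Ahrr, Cyp1a1 and Cyp1b1 were all under 4 TPM, Ahrr and Cyp1a1 overlapped in range, and Cyp1b1 was the lowest of the 6 in every library.

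The ratio of Ahr to Arnt TPM within a library stays the same when that library is multiplied by a constant. It was 0.421, 0.346, 0.435 and 0.445 in DSS replicates 1, 2, 4 and 5 and 0.415, 0.392, 0.346 and 0.346 in DSS + GAA. The groups overlapped. Taken as log2 of the ratio of (TPM + 1) values it averaged -1.25 ± 0.16 and -1.35 ± 0.12 (SD, n = 4 each), and the difference of -0.10 did not pass (two-sided exact permutation test over 70 assignments, p = 0.314; the smallest p possible is 0.0286). Because of the added 1, this tested form does not stay exactly the same under such scaling. The difference was -0.13 with a pseudocount of 0.1 and -0.023 with 5.

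Relative to the receptor, Tiparp reached 2.88, 5.15, 2.30 and 2.48 times the Ahr TPM in DSS and 3.05, 2.56, 2.55 and 2.15 times in DSS + GAA. Apart from DSS replicate 2 the groups shared the same range. DSS replicate 2 had the lowest Ahr of its group together with the highest Tiparp, Cyp1a1 and Cyp1b1. The ratio of Cyp1b1 to Ahr was 0.0339, 0.0936, 0.0272 and 0.0275 in DSS and 0.0274, 0.0290, 0.00509 and 0.00901 in DSS + GAA. It was lowest in DSS + GAA replicates 4 and 5, and DSS + GAA replicates 1 and 2 lay within the DSS range. The ratio of Ahrr to Ahr was 0.0912, 0.107, 0.082 and 0.0681 in DSS and 0.159, 0.126, 0.0686 and 0.0724 in DSS + GAA. For Cyp1a1 to Ahr it was 0.0724, 0.174, 0.0277 and 0.0479 in DSS and 0.0677, 0.0305, 0.0159 and 0.0698 in DSS + GAA. The groups overlapped for both, and Ahrr to Ahr was highest in DSS + GAA replicates 1 and 2. These ratios were examined after the values were seen and are given without a test.

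**Figure D3:**
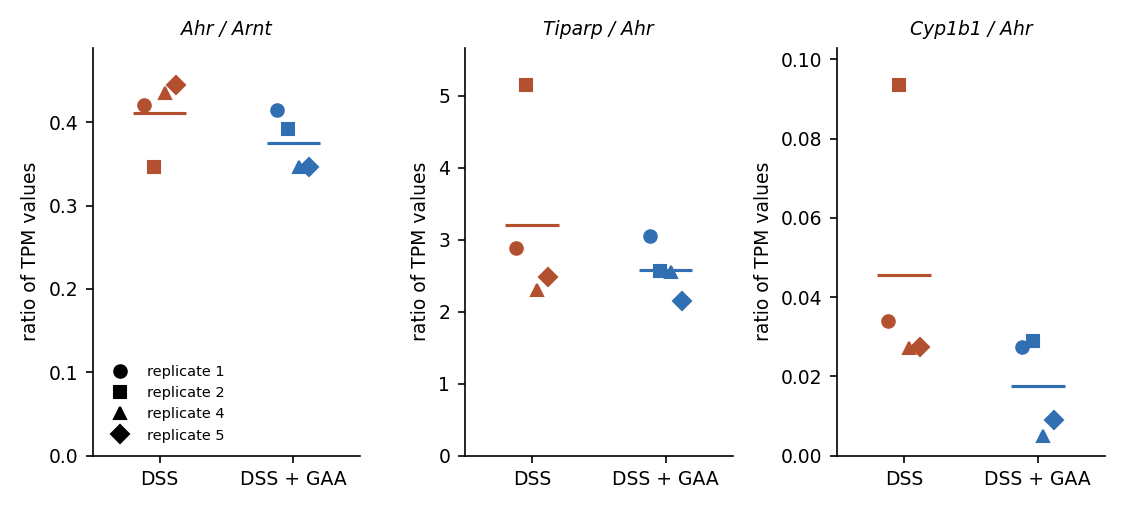
Ratios of TPM values within each library for Ahr to Arnt, Tiparp to Ahr and Cyp1b1 to Ahr, with 1 symbol per replicate number and a line at the group mean. DSS replicate 2 stands apart with a Tiparp to Ahr ratio of 5.15, and DSS + GAA replicates 4 and 5 have the lowest Cyp1b1 to Ahr ratios.

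Within both groups the libraries numbered 1 and 2 were above those numbered 4 and 5 for Ahrr, Arnt, Cyp1b1 and Tiparp, which is 4 of the 6 genes. The same pattern was present in 6.44% of the tested genes, which do not include Cyp1b1. It was picked out after the values of the 6 genes were seen, so these shares do not test it. The labels do not say what a replicate number marks.

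Genes whose profile over the 8 libraries was closest to each tested member were found by the root mean square (RMS) difference of centred log2 values among tested genes with a mean of at least 2 TPM (13088 for Ahr). For Ahr these were Ubr1, a ubiquitin ligase gene (RMS difference 0.040; 19.0 ± 1.64 TPM in DSS and 11.9 ± 1.84 TPM in DSS + GAA), and Kifap3, a kinesin adaptor gene (0.050; 21.9 ± 3.10 and 13.2 ± 1.62 TPM). For Arnt they were the signalling adaptor gene Shc1 (0.040; 83.8 ± 10.4 and 56.1 ± 1.25 TPM) and the translation initiation factor gene Eif4g3 (0.045; 35.4 ± 3.77 and 24.3 ± 0.998 TPM). Tiparp was closest to Zfp36 (0.083; 197 ± 64.0 and 103 ± 19.0 TPM), which encodes the immediate early mRNA decay factor tristetraprolin, and to the transporter gene Slc16a6 (0.105; 16.4 ± 4.69 and 7.37 ± 1.70 TPM). Ahrr was closest to Il17ra (0.098) and Sh2d3c (0.102). All errors are SD over 4 libraries.

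Around the 6 genes, 5 lists of the pathway were read in the same fit. Of their 50 tested genes, 16 fell and 3 rose, beside 28.2% and 5.96% of all tested genes. The same shares are the background for the counts of each list below. The split followed the scaling, with 4 lower and 7 higher after trimmed mean scaling or median centring and 5 lower and 6 higher after quantile normalization. Without DSS replicate 1, 4 fell and 1 rose, and without DSS + GAA replicate 2, 8 fell and 2 rose. Without DSS + GAA replicate 5, 10 fell, and without DSS + GAA replicate 1, 7 rose.

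Of 7 genes of the cytosolic complex and of receptor degradation, 2 fell and 0 rose (median -0.36, against -0.25 for all genes). After trimmed mean scaling or median centring 1 was lower and 1 was higher, the kinase gene Src (0.44, limma adjusted p = 0.0349, and 0.48, adjusted p = 0.0256), and after quantile normalization 2 were lower and 0 were higher. The chaperone gene Hsp90aa1 was 299 ± 66.9 TPM in DSS and 192 ± 24.2 TPM in DSS + GAA (log2 difference -0.61 ± 0.19, limma adjusted p = 0.0347). Cul4b, which encodes the scaffold of a ubiquitin ligase that AHR can join, went from 32.7 ± 6.77 to 19.2 ± 1.27 TPM (-0.72 ± 0.15, adjusted p = 0.00989) and passed under the 3 other scalings too. Hsp90aa1 passed only under quantile normalization among those 3. The co-chaperone gene Ptges3 (-0.36) did not pass on the deposited scale and was named after its value was seen.

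Of 8 tested relatives of the bHLH-PAS family, 5 fell and 0 rose (median -0.50). Hif3a, a hypoxia factor gene, went from 13.1 ± 4.25 to 4.46 ± 2.04 TPM (-1.38 ± 0.30, limma adjusted p = 0.0113), and the activity-induced Npas4 from 4.12 ± 0.975 to 1.80 ± 0.744 TPM (-0.89 ± 0.23, adjusted p = 0.0190). Arntl2, a clock gene paralogue, fell by 0.62 on the log2 scale (adjusted p = 0.0161), Hif1a, the oxygen-regulated partner of ARNT, by 0.54 (adjusted p = 0.0424) and Epas1, another such factor, named as the last of the 5, by 0.35 (adjusted p = 0.0483). Under each of the 3 other scalings 1 gene of this list was lower (Hif3a, or Hif1a after quantile normalization) and 0 were higher. The alternative partner gene Arnt2, which the filter left out, was 0.855 ± 0.173 TPM in DSS and 0.365 ± 0.169 TPM in DSS + GAA, far below Arnt.

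Of 10 coregulator genes, 3 fell and 0 rose on the deposited scale (median -0.11). Among them were the coactivator gene Ncoa2 (-0.48 ± 0.12, limma adjusted p = 0.0151) and the acetyltransferase gene Crebbp (-0.41 ± 0.11, adjusted p = 0.0216). Under each of the 3 other scalings 0 were lower and 3 were higher, namely Ncoa1, Ncoa3 and Rb1, so no direction of this list held across scalings.

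Other reported AHR targets did not move as 1 group. Of 16 tested, 6 fell and 1 rose, beside 28.2% and 5.96% of all tested genes, and 9 did not pass. The median was -0.17, against -0.25 for all tested genes. Il10, an anti-inflammatory cytokine gene, was 29.6, 56.6, 13.8 and 11.1 TPM in DSS and 1.84, 1.34, 1.31 and 0.502 TPM in DSS + GAA. Every DSS + GAA library was under every DSS library (-3.43 ± 0.46, limma adjusted p = 0.00508). Socs2, a suppressor of cytokine signalling, went from 19.1 ± 3.34 to 7.11 ± 3.13 TPM (-1.37 ± 0.26, adjusted p = 0.00768). Il10 and Socs2 passed under the 3 other scalings as well. Il22 fell by 1.16 on the log2 scale (adjusted p = 0.0173) and the amino acid transporter gene Slc7a5 by 0.78 (adjusted p = 0.0212), and both missed the threshold under those scalings and without DSS replicate 1. The remaining falls were Entpd1 (-1.37) and Znrf3 (-0.54), named after their values were seen, and neither passed under the 3 other scalings. Under each of those, 2 genes of this list were lower and 1 was higher.

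The riser was Scin, which encodes an actin-severing protein. It was 46.8, 40.0, 76.8 and 67.8 TPM in DSS and 135, 119, 78.1 and 118 TPM in DSS + GAA. DSS replicate 4 and DSS + GAA replicate 4 nearly met, but the groups did not overlap (0.97 ± 0.24, limma adjusted p = 0.0159). It passed under the 3 other scalings and missed the threshold without DSS replicate 1 (adjusted p range over 18 alternatives 0.0104 to 0.0577). Some detoxification genes of the classical AHR battery, named for that role, had positive differences that did not pass. They were Nqo1 (0.55, limma adjusted p = 0.206), Gsta1 (0.55, 0.214), Ugt1a6a (0.63, 0.144) and Ugt1a6b (0.60, 0.152), each highest in DSS + GAA replicate 5. Cyp1a1 and Aldh3a1, of the same battery, had negative differences that did not pass (-0.63 and -0.33, limma without a filter, adjusted p = 0.147 and 0.143). Ugt1a6a and Ugt1a6b share exons, so their reads may have been split. Aldh3a1, left out by the filter, was 0.874 ± 0.414 TPM in DSS and 0.465 ± 0.120 TPM in DSS + GAA, and Serpinb2, also left out, was 2.29 ± 1.63 and 0.138 ± 0.0974 TPM.

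Enzymes that turn tryptophan into AHR ligands or their precursors gave 2 rises and 0 falls among 9 tested genes (median 0.03). Ido1, the interferon-inducible first enzyme of the kynurenine route, was 79.9, 209, 74.1 and 103 TPM in DSS and 2251, 1392, 1149 and 280 TPM in DSS + GAA. The lowest DSS + GAA library, replicate 5, was still above the highest DSS library (3.22 ± 0.59, limma adjusted p = 0.00689). Kyat1, a kynurenine aminotransferase gene, was 11.7 ± 4.14 TPM in DSS and 28.0 ± 15.0 TPM in DSS + GAA (1.12 ± 0.33, limma adjusted p = 0.0285), with no overlap between the groups. Ido1 and Kyat1 passed under the 3 other scalings, and Kyat1 missed the threshold when DSS replicate 1, 2, 5 or DSS + GAA replicate 2 was left out (adjusted p up to 0.0872). Il4i1, which makes indole and kynurenic acid ligands, was 5.84 ± 2.84 and 3.02 ± 0.658 TPM (-0.69, adjusted p = 0.0855). Between the groups, Ido1 and Kyat1 were thus higher in DSS + GAA, where Ahr, Arnt and Tiparp were lower on the deposited scale. Within DSS + GAA, Ido1, Ahr, Arnt and Tiparp were all highest in replicate 1 and lowest in replicate 5, whereas Kyat1 was highest in replicate 5. Within DSS, Ido1 was highest in replicate 2, which had the lowest Ahr and the highest Tiparp. A relation between these genes was not tested.

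**Figure D4:**
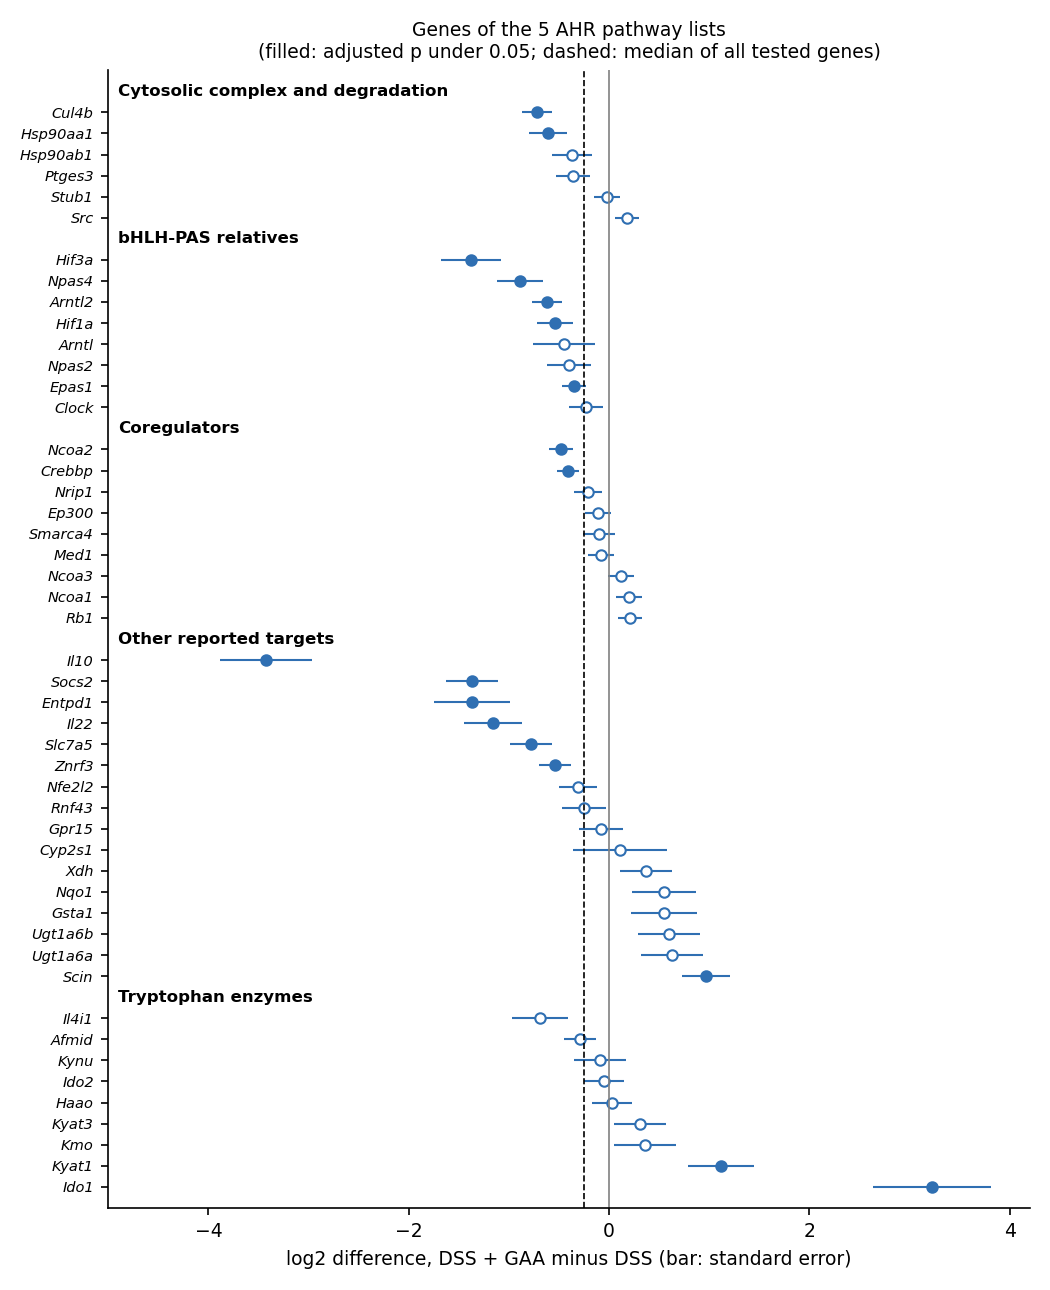
Log2 difference between DSS + GAA and DSS for 48 of the 50 tested genes of 5 AHR pathway lists, with the standard error of the fit, on TPM as deposited. Filled points passed (15 lower and 3 higher, with 2 tested genes, 1 of them lower, not shown), and the dashed line is the median of all tested genes at -0.25, which most coregulators and several detoxification genes exceed.

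Marker lists that take in AHR-dependent lymphocytes of the gut, but also other T cells, gave mixed readings. Of 8 tested markers of group 3 innate lymphoid and Th17 cells, 4 fell (Il22, Il17a, Il7r and Kit) and 2 rose (Ltb among them), and after median centring 1 was lower and 2 were higher. Ltb, a lymphotoxin subunit gene, was 2.43 ± 1.64 TPM in DSS and 6.64 ± 2.66 TPM in DSS + GAA, whereas the IL-7 receptor gene Il7r was 8.20 ± 2.03 and 2.93 ± 1.52 TPM. The summed level of the list was 82.3 to 138 TPM (DSS) or 117 to 141 TPM (DSS + GAA), and Il17a was listed at 0 in a DSS + GAA library. All 9 tested markers of intraepithelial and CD8 T cells rose, and their sum was 64.9 to 89.2 TPM (DSS) or 137 to 384 TPM (DSS + GAA). In bulk tissue, fewer cells of a type and less RNA per cell cannot be told apart.

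Other cell types also differed between the groups in which Ahr, Arnt, Tiparp and Cyp1b1 differed. Summed fibroblast markers were 2028 to 5081 TPM (DSS) or 537 to 1906 TPM (DSS + GAA), with 4 of 10 lower (3 after median centring). Endothelial markers summed to 165 to 268 TPM and 43.9 to 168 TPM, with 8 of 10 lower (2 after median centring). Neutrophil markers summed to 2147 to 6514 TPM and 198 to 719 TPM, with 8 of 10 lower (7 after median centring), and Ngp was at 0 in at least 1 library. All 10 enteric neuron and glia markers were lower (780 to 1521 TPM and 145 to 427 TPM), and 8 were after median centring. Of 14 colonic epithelial markers, 5 were higher and 1 was lower (9 and 1 after median centring). Of 8 smooth muscle markers (1895 to 5237 and 1531 to 3753 TPM), 0 passed, as did 0 of 10 macrophage markers (1133 to 1443 and 688 to 2472 TPM) and 0 of 8 B and plasma cell markers (1544 to 2305 and 1248 to 3574 TPM). Ileal markers summed to 152 to 283 TPM and 230 to 526 TPM, with 3 of 4 tested higher and 1 lower, and Apoa1, Apoa4, Lct and Sis were at 0 in at least 1 library. Adipocyte markers summed to 338 to 535 TPM and 64.9 to 147 TPM, with 1 of 3 tested lower (1 lower and 1 higher after median centring). Hepatocyte markers summed to 10.3 to 14.6 TPM and 9.87 to 28.3 TPM. The part of these shifts in the values of the 6 genes was not tested.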

How the data were processed

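RNA of 8 colon samples was extracted with TRIzol and taken through poly(A) selection to paired-end sequencing, per the labels' protocols. The authors deposited 1 table of TPM values for 18262 genes, to which the authors added, from their own comparison, each gene's p-value, log2 fold change and false discovery rate. Per the submitters' processing notes, the tools included Trimmomatic, HISAT2, featureCounts and edgeR and the build was mm10, with no versions or roles given. Of the table's genes, 18185 matched GENCODE M21 (GRCm38), which gave the coordinates.

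The TPM values were compared as log2(TPM + 1) with limma 3.58.1 (R 4.3.3; variance trend, robust empirical Bayes, group as the sole term), after a filter of TPM at least 1 in at least 4 libraries that left out 4045 genes. Two-sided p-values received the Benjamini-Hochberg adjustment across every gene tested, and 0.05 was the threshold. In data simulated for this comparison over 14217 genes, 52 of 100 genes with a log2 change of 1 and 89 of 100 with a log2 change of 2 were recovered. There, 7 unchanged genes were called. Far fewer genes were changed in the simulation than passed in the data, and all of them had a mean log2(TPM + 1) above 2. These recovery rates therefore do not carry over to the data or to lower genes. The members and lists were chosen with earlier results of these data known. Genes named from a list are those that passed, at most 4 per direction by p, and others are named for their role or after their values were seen. Alternatives were other pseudocounts (0.1 and 5), filters, scalings and fits, a replicate block and leaving out each library. Fits without a filter combined with each of these, for Cyp1a1 and Cyp1b1, were added after seeing the data. Trimmed mean scaling left out 30% of log ratios and 5% of mean levels at each end. The labels do not state that libraries are separate animals, so the spread behind the p-values may be technical. Some genes of the lists are counted but not reported here by name. Count tests were not run, because TPM holds no counts.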

Additional observations from a re-analysis of the deposited data

Results flagged for a closer look

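In 4 of 44 gene and group combinations, 1 library lay apart from the other 3 of its group by Dixon's criterion, which chance gives in about 1 of 20 groups. None of the 4 concerns Ahr, Arnt, Ahrr, Tiparp, Cyp1a1 or Cyp1b1. Hsp90aa1 was 199 TPM in DSS replicate 5, against 319 to 340 TPM in the other DSS libraries. Hif3a was 7.49 TPM in DSS + GAA replicate 5, against 3.13 to 3.85 TPM in the others. Ncoa2 was 14.9 TPM in DSS + GAA replicate 2, against 15.9 to 16.0 TPM. Kyat1 was 17.8 TPM in DSS replicate 4, against 9.06 to 10.2 TPM.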

How the results depend on the processing

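On log2 values, median centring gave -0.36 for Ahr, -0.26 for Arnt, -0.63 for Tiparp and -0.20 for Cyp1b1, none passing, and 0.04 for Ahrr. Quantile normalization gave -0.35 for Ahr, -0.74 for Tiparp and -0.41 for Cyp1b1, none passing, and 0.17 for Ahrr. Trimmed mean scaling gave -0.30 for Arnt, -0.67 for Tiparp and -0.49 for Cyp1b1, none passing. Cyp1b1 also missed the threshold at -0.17 with a pseudocount of 5 and -0.58 in a fit lacking the variance trend and robust step. With 1 library left out, Tiparp ranged from -1.09 to -0.73 and Cyp1b1 from -0.67 to -0.40. Of the 6 genes, 3 passed as lower in the main comparison, 1 after trimmed mean scaling or quantile normalization and 0 after median centring. Pathway genes numbered 16 lower and 3 higher, then 4 and 7 after trimmed mean scaling or median centring, 5 and 6 after quantile normalization, 5 higher with array quality weights, and 4 to 17 lower and 1 to 7 higher with 1 library left out. The cause of these changes was not tested. Same-numbered libraries correlated at 0.18, -0.11, 0.15 and -0.03 in their deviations from the group means (numbers 1, 2, 4 and 5), so the numbers were not taken to pair them. With a replicate block the differences of Ahr (-0.67), Arnt (-0.56), Tiparp (-0.93) and Cyp1b1 (-0.58) passed, and 11 pathway genes were lower. Over its 11 alternatives the Ahr to Arnt ratio gave p of 0.0857 to 0.857. Depth is unknown, which limits Ahrr, Cyp1a1 and Cyp1b1 most.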
